A study of Mus musculus with 12 samples.

Results

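The 34 genes described here carry out or regulate glycolysis, or are known to respond to low oxygen. They were taken as a named set of gene symbols, chosen by known role and with earlier results of these data known. All 34 were found among the 41457 genes of each table, 33 by exact symbol and Aldoa by its identifier (ENSMUSG00000030695, listed under the name Aldoa_1). All 34 passed the filter on low counts in every comparison. The set holds the glucose transporters Slc2a1 and Slc2a3, 14 enzymes from hexokinase to pyruvate kinase, 2 enzymes that set fructose-2,6-bisphosphate, 5 genes of lactate and pyruvate handling, 3 genes of oxygen sensing and 8 other targets of the low-oxygen response.

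The samples were 12 poly(A)-selected RNA sequencing libraries from mouse CD4+ T cells, isolated from spleen and lymph nodes of C57BL/6 mice and differentiated in culture. The mice were wild type (WT) or NFATc1/ΔS, a line whose NFATc1 transcription factor the series title describes as lacking SUMOylation. All cultures received anti-CD28 at 1 µg/ml, anti-CD3 and medium with 5% fetal calf serum. Th1 cultures received anti-CD3 at 0.5 µg/ml, IL-12 at 10 ng/ml and an antibody against IL-4. Th2 cultures received anti-CD3 at 0.5 µg/ml, IL-4 at 50 ng/ml and an antibody against IFN-γ. Th17 cultures received anti-CD3 at 0.25 µg/ml, TGFβ at 0.5 ng/ml, IL-6 at 20 ng/ml and both antibodies. Th1 and Th2 cells grew in RPMI and Th17 cells in IMDM, so the medium and the anti-CD3 dose cannot be told apart from the Th17 condition. Cells of each culture type and genotype were collected at day 2.5 and at day 3.5, with 1 library for each of the 12 combinations. The labels give a stimulation time that lies between these days, so an end of stimulation cannot be told apart from the day. The labels do not say how many mice stood behind a library, nor the age or sex of the mice, and no combination was repeated.

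Glycolysis splits glucose into pyruvate, and activated T cells run it at a high rate and export much of the pyruvate as lactate, even where oxygen is present. The transcription factor HIF-1, a dimer whose alpha subunit is encoded by Hif1a, raises transcription of many of these enzymes when oxygen is low. The prolyl hydroxylases encoded by Egln1 and Egln3 mark the alpha subunit for destruction when oxygen is present, and both genes are themselves known targets of HIF-1. HIF-1 can also be raised in T cells by receptor and cytokine signals through the kinase mTOR, and Th17 differentiation is known to depend on it in part.

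Reads on genes ranged from 13417121 to 17774400 per library, and the 34 genes took between 2.56% (Th1 NFATc1/ΔS, day 2.5) and 5.11% (Th2 WT, day 2.5) of them. Reads scaled for library size (CPM) are used for levels of 1 gene across libraries. T cell markers were present in all libraries, with a summed level of 2184.8 to 2864.6 CPM over 7 genes, and the summed level of each lineage's markers was highest in the cultures labelled for it. The Th1 marker Cxcr3 did not follow this, with 1.7 and 2.5 CPM in the Th1 libraries of day 3.5 and 4.4 and 3.9 in Th2 at that day. Ifng, the Th1 cytokine, lay between 38.2 and 186.7 CPM in the Th1 libraries and at 4.4 CPM or less elsewhere and Gata3, the Th2 factor, between 560.3 and 739.1 CPM in Th2. The summed level of 5 Th17 markers was 84.5 to 179.6 CPM in Th17 and 16.0 CPM or less elsewhere.

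The Th1 libraries stood apart in 2 ways that touch the results below. Both Th1 libraries of day 3.5 differed from the other 10 libraries by at least 16-fold in the same direction at 42 genes that were higher and 9 that were lower, of 16533 examined, whereas each of the other 5 same-day pairs differed in this way at 0 genes. Among these 42 was Eno1b, a near-identical copy of the member Eno1, with 2524.6 and 2434.6 CPM in these libraries and between 5.2 and 10.9 CPM in the other 10. Uniquely placed reads were 0.333% and 0.34% of all Gapdh reads in the same 2 libraries, and between 3.06% and 3.94% in the rest. The Th1 day difference therefore cannot be told apart from whatever else set these 2 libraries apart. The second is the Th1 NFATc1/ΔS library of day 2.5, whose log2 levels over 13503 genes correlated at 0.929 to 0.959 with the other Th1 libraries, while the pairs within Th2 and within Th17 correlated at 0.973 to 0.988. With Th2 and Th17 libraries it correlated at 0.899 to 0.952, and Th2 with Th17 libraries at 0.944 to 0.969. The Th1 WT library of day 2.5 correlated at 0.951 to 0.959 with the other Th1 libraries and at 0.966 to 0.979 with Th17. Both Th1 libraries of day 3.5 correlated at 0.911 to 0.948 with Th2 and Th17 libraries. The correlations alone therefore do not single out the NFATc1/ΔS library of day 2.5.

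Levels of different genes were compared per exon length, from exon reads scaled to the same total in each library. By the mean over 12 libraries, Pgk1 (phosphoglycerate kinase) led with 5678, with a range of 3166 to 7457, above 99.95% of all genes. Aldoa (aldolase A) followed with 3903, Gapdh with 3524, Pkm (pyruvate kinase) with 3145, Ldha (lactate dehydrogenase A) with 2778, Pgam1 (phosphoglycerate mutase) with 2443, Eno1 (enolase) with 2037 and Tpi1 (triose phosphate isomerase) with 1735. The ranges of neighbours in this order overlapped throughout, so the order within these 8 is not sharp. Outside glycolysis and lactate formation the highest was Egln3, with a mean of 1114 and a range of 421.7 to 1412.

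The other members spread over a wide range on the same per-length scale. Gpi1 (glucose phosphate isomerase) had a mean of 832.6, Slc2a3 659.2, Hif1a 533.4, Bnip3 466.0, Egln1 337.4 and Slc2a1 316.2. Ndrg1, Aldoc, Hk1, Slc16a3, Pfkp, P4ha1, Pfkl and Hk2 followed, from 285.2 for Ndrg1 down to 123.0 for Hk2. Mxi1, Pdk1, Slc16a1, Pfkm, Ldhb, Vegfa, Ankrd37, Ak4 and Pfkfb3 lay lower, from 95.4 for Mxi1 to 38.5 for Pfkfb3. Adm, which encodes the vasodilator peptide adrenomedullin, had a mean of 11.6 and Pfkfb4 one of 7.13. Even the lowest member by mean, Pfkfb4, stood above 78.4% of all genes.

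**Figure D1:**
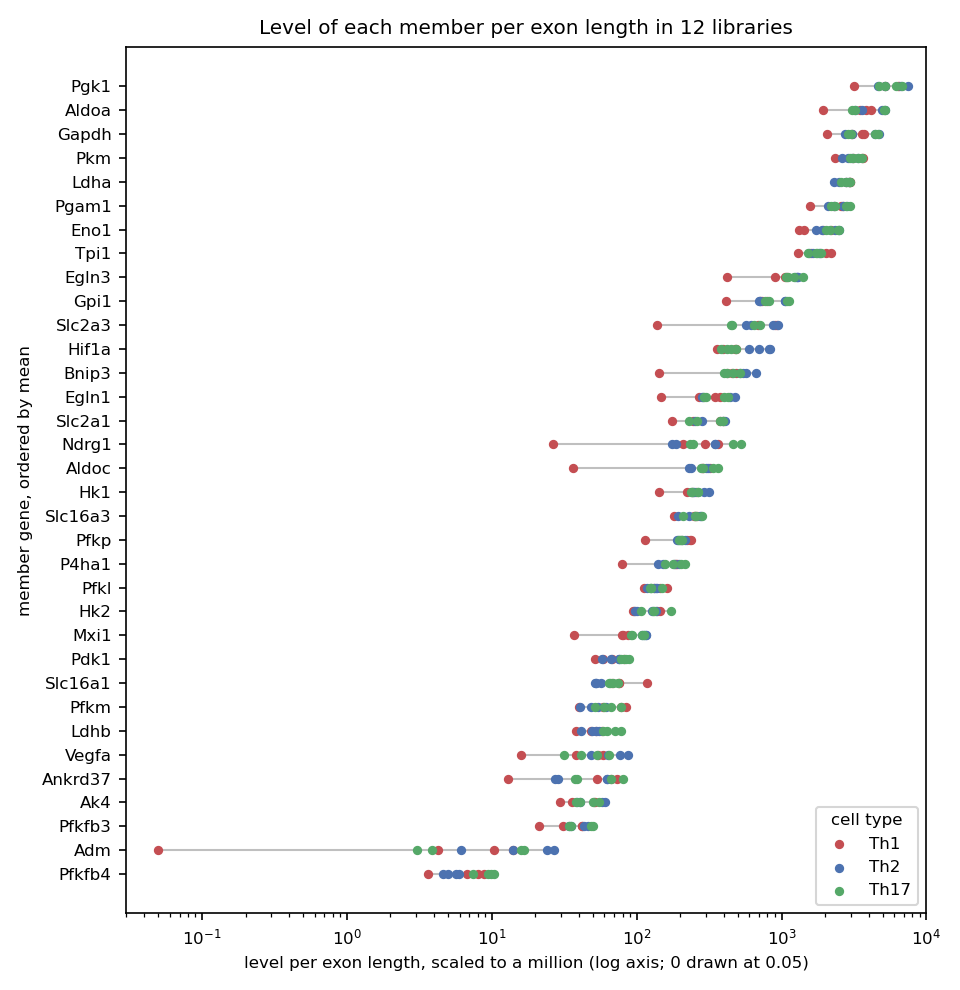
Level of each of the 34 genes per exon length, scaled to the same total in each library, on a log axis. Each point is 1 library, coloured by culture type, a grey line spans the 12 libraries, and the 0 of Adm in 1 Th1 library is drawn at 0.05. Pgk1 leads with a mean of 5678 and Pfkfb4 closes with 7.13, and a single Th1 point lies far to the left for Ndrg1, Aldoc, Slc2a3 and Adm.

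For several enzymes and transporters with more than 1 form in the set, 1 form carried most of the per-length level. Ldha, the form that favours lactate, made up 97.0% to 98.7% of the 2 lactate dehydrogenase genes in all libraries. Aldoa made up 91.6% to 98.2% of the 2 aldolases. Hk1, the housekeeping hexokinase, exceeded the inducible Hk2 in all libraries, at 59.7% to 71.9% of their sum. Slc2a3 (GLUT3) made up 63.0% to 73.5% of the 2 glucose transporters in 11 libraries but 43.9% in Th1 NFATc1/ΔS at day 2.5. Slc16a3 (MCT4, which exports lactate) made up 76.2% to 84.0% of it and Slc16a1 (MCT1) together in 11 libraries but 60.6% in that same library. The phosphofructokinases were more evenly divided, with Pfkp at 49.4% to 56.6% of the 3 genes in 11 libraries and at 40.2% in that library, where Pfkl had 45.8%.

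The question of time was whether these genes changed between day 2.5 and day 3.5 of culture. In Th2 and Th17 cells most of the set fell together. Over the 4 Th2 and Th17 pairs of libraries (both genotypes), 28 of the 34 genes were lower at day 3.5 by edgeR's quasi-likelihood test (adjusted p under 0.05 over all genes) and 0 were higher, against 18.7% of all 13086 genes tested that were lower. The median change of the 34 was -0.55 on the log2 scale, and that of all genes 0.03. In 29 members the day 3.5 library was below its day 2.5 partner in 4 of 4 pairs. The p-values measure how well the day difference repeats over cultures of 2 types and 2 genotypes, since no combination was replicated. In bulk RNA, fewer expressing cells and less RNA per cell cannot be told apart.

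Both glucose transporters fell. Slc2a1 (GLUT1) had 570.0 CPM in WT and 579.9 in NFATc1/ΔS Th2 cells at day 2.5, and 376.0 and 297.0 at day 3.5, and in Th17 it had 482.6 and 498.8 at day 2.5, and 296.2 and 252.2 at day 3.5. Slc2a3 had 2781.5 and 2546.2 CPM (WT, then NFATc1/ΔS) in Th2 at day 2.5, 1635.3 and 1335.5 at day 3.5, and in Th17 1767.3 and 1722.3, then 1039.2 and 993.4. All day 2.5 libraries lay above all day 3.5 libraries of the same culture type for both genes. The change was -0.81 ± 0.08 (log2, SE, adjusted p = 6.03e-05, edgeR) for Slc2a1 and -0.81 ± 0.07 (adjusted p = 2.54e-05) for Slc2a3, to 0.569 of the day 2.5 level in both. About 54.8% of Slc2a1 reads were uniquely placed, against 99.97% for Slc2a3.

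Of the 14 enzymes from hexokinase to pyruvate kinase, 13 fell and Pfkl, the liver-type phosphofructokinase, did not pass. Aldoa fell from 6110.6 and 5752.6 CPM (WT, NFATc1/ΔS) to 3849.4 and 3022.3 in Th2, and from 5137.6 and 5462.4 to 2977.9 and 2699.1 in Th17 (-0.85 ± 0.08). Gapdh, often used as a constant reference gene, went from 7844.8 and 7365.4 to 4611.4 and 3701.8 in Th2, and from 6480.7 and 6777.1 to 3934.9 and 3587.0 in Th17 (-0.85 ± 0.07). Gpi1 changed by -0.75 ± 0.07, Pgk1 by -0.67 ± 0.07, Hk2 by -0.58 ± 0.06, Aldoc by -0.56 ± 0.07, Pfkm by -0.55 ± 0.07, Pgam1 by -0.55 ± 0.07 and Eno1 by -0.54 ± 0.08. The smallest called changes among the enzymes were those of Pkm (-0.42 ± 0.07), Hk1 (-0.42 ± 0.07), Tpi1 (-0.39 ± 0.08) and the platelet-type phosphofructokinase Pfkp (-0.28 ± 0.07). Adjusted p-values of these 13 (edgeR) ran from 3.45e-05 for Gapdh to 0.00827 for Pfkp.

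Around the enzyme chain the change was uneven. Pfkfb3, whose product makes the phosphofructokinase activator fructose-2,6-bisphosphate, fell by 0.62 ± 0.06, while its relative Pfkfb4 did not pass, with a change of 0.004 and 10.4 to 20.3 CPM in the 8 libraries. Ldha fell by 0.42 ± 0.08 and Slc16a3 by 0.52 ± 0.09, and Pdk1, a kinase that turns off pyruvate dehydrogenase, fell by 0.305 ± 0.086. Ldhb, the other lactate dehydrogenase subunit, and Slc16a1 did not pass, with changes of -0.17 and -0.15.

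The oxygen-sensing genes split. Egln1 went from 699.7 and 643.4 CPM (WT, NFATc1/ΔS) to 379.2 and 334.7 in Th2, and from 530.3 and 541.0 to 344.0 and 321.5 in Th17, a change of -0.80 ± 0.07. Egln3 did not pass, at -0.11. Hif1a itself did not pass either: it had 1712.5 and 1428.6 CPM in Th2 at day 2.5 and 1837.1 and 1635.7 at day 3.5, and in Th17 949.7 and 860.0, then 940.7 and 797.4. Its change was 0.04, and its day 2.5 and day 3.5 values interleaved in both culture types. The median change of the 8 other low-oxygen targets was -0.76.

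All 8 of those targets were lower at day 3.5. Ndrg1, a differentiation and stress gene, had 927.4 and 928.7 CPM (WT, NFATc1/ΔS) in Th2 at day 2.5 and 452.4 and 382.0 at day 3.5, and 1190.0 and 1137.7, then 486.1 and 495.9, in Th17. Its change of -1.20 ± 0.07 had the smallest p of the set (adjusted p = 6.27e-06, edgeR). Ankrd37, an ankyrin repeat gene, went from 39.4 and 38.8 CPM to 15.7 and 14.9 in Th2, and from 42.6 and 38.7 to 19.2 and 17.6 in Th17 (-1.24 ± 0.08). Day 2.5 and day 3.5 libraries did not overlap for either gene.

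Adm fell most, by 1.96 ± 0.26, from 17.7 and 15.8 CPM to 8.4 and 3.2 in Th2 and from 8.8 and 10.0 to 2.0 and 1.5 in Th17, at read counts of at most 232 per library of which 12.7% were uniquely placed. Vegfa (vascular endothelial growth factor A) fell by 0.82 ± 0.08, Ak4 (a mitochondrial adenylate kinase) by 0.70 ± 0.07, P4ha1 (a collagen prolyl hydroxylase) by 0.56 ± 0.06, Bnip3 (a mitophagy receptor) by 0.445 ± 0.061 and Mxi1 (a MYC antagonist) by 0.21 ± 0.06. Within this group the level at day 3.5 thus ranged from 0.257 (Adm) to 0.862 (Mxi1) of the day 2.5 level.

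**Figure D2:**
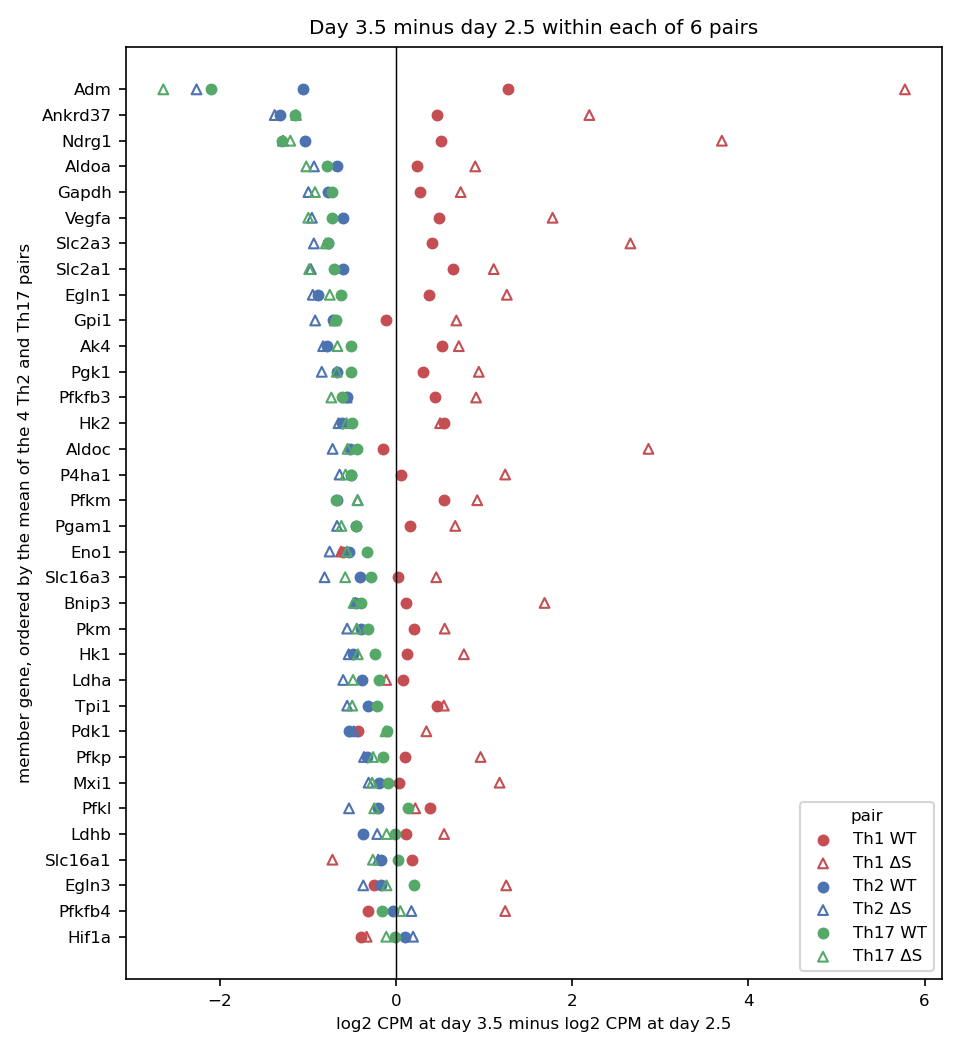
Difference in log2 CPM, day 3.5 minus day 2.5, for each of the 34 genes within 6 pairs of libraries that share culture type and genotype. Each point is 1 pair, filled circles are WT and open triangles NFATc1/ΔS. The Th2 and Th17 points lie left of 0 for most genes, and the Th1 points lie right of 0 for 25 of the 34 in both genotypes.

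Within each culture type the picture was close to that of the pooled pairs. In Th2 alone 29 members were lower at day 3.5 (14.6% of all genes tested were) and in Th17 alone 25 (16.2% of all genes), with 0 higher in either. Pdk1 (-0.50 in Th2 and -0.11 in Th17), Pfkl (-0.36 and -0.06), Pfkp (-0.35 and -0.20) and Mxi1 (-0.25 and -0.18) were the 4 that passed in Th2 and not in Th17. The difference between the Th17 and the Th2 change was itself tested, and 0 of the 34 passed (edgeR, 1.49% of all genes did; 1 member was at an unadjusted p under 0.05, and DESeq2 and limma-voom also called 0). Pdk1 came closest, at 0.40 ± 0.11 (adjusted p = 0.117), followed by Egln3 at 0.32, Pfkl at 0.31 and Adm at -0.86, none of which passed. A model over all 12 libraries, where the Th1 libraries add to the spread, called 0 members for either day change, so these calls rest on the spread within the 8 Th2 and Th17 libraries.

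Other lists moved with the day in the same 8 libraries. Of 43 further low-oxygen genes 41 were tested, 30 of which fell and 2 rose, with a median of -0.59. The falling ones included Hilpda (a lipid droplet protein, -1.32), Ddit4 (an mTOR inhibitor, -1.04), Vhl (which targets HIF-1 alpha for destruction, -1.02), Bnip3l (-0.64) and Ero1l (-0.69), and those that rose were Stc2 (0.60) and the transferrin receptor Tfrc (0.34). Of 21 further glycolysis genes tested 4 rose and 4 fell. Cell cycle genes went the other way, with 24 of 26 higher and a median of 0.53. Red blood cell markers also fell, 5 of 5 tested with a median of -2.65, from a summed level of 8.7 to 23.9 CPM over 7 genes at day 2.5 to 1.9 to 3.2 at day 3.5. Of 5 CD8 T and NK cell markers tested 4 fell, from a summed level of 45.4 to 62.2 CPM over 7 genes to 34.6 to 45.2. Of 8 B cell markers tested 2 fell over the 4 pairs and 5 in Th17 alone (median -1.06), and of 7 T cell markers 1 fell over the 4 pairs and 5 in Th2 alone (median -0.25). The part of these cells in the result was not tested.

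The sequence just upstream of the transcription start was read for the members, since HIF-1 is known to bind short elements with the core ACGTG. Of the 34 genes 32 had promoter entries in RefSeq (build GRCm38.p6), with 51 start sites in all, and the 250 bases before each start were searched for ACGTG on both strands. The windows of 7 members are printed 5′ to 3′ with each match in capitals: 2 of the steepest falls (Adm, Ankrd37), 4 further genes that fell (Bnip3, Slc2a1, Pgk1, Ldha at its first start site) and Hif1a, which did not. CACGTG holds the core on both strands and counts as 2 overlapping matches.
Adm: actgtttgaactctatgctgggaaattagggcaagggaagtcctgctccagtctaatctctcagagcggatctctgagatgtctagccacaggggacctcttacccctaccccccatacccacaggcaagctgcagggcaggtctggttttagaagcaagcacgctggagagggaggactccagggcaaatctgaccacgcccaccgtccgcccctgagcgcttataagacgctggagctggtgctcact
Ankrd37: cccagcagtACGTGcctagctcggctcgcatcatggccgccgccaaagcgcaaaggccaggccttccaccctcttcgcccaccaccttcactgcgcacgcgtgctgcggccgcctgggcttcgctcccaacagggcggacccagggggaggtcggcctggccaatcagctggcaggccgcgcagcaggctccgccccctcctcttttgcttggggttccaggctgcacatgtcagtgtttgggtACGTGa
Bnip3: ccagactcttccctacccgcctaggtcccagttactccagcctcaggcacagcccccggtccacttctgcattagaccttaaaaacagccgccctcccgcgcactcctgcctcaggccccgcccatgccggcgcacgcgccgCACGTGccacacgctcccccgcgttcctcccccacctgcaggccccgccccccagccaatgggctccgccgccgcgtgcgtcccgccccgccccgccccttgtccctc
Slc2a1: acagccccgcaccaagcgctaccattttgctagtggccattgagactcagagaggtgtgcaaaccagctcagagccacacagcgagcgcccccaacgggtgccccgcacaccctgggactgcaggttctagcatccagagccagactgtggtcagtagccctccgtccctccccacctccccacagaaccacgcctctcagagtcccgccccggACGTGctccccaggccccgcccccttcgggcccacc
Pgk1: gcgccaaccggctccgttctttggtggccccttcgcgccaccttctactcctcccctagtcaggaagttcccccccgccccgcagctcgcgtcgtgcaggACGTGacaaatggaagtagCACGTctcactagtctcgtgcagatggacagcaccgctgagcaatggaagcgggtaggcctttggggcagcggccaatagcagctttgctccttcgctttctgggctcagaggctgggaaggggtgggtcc
Ldha: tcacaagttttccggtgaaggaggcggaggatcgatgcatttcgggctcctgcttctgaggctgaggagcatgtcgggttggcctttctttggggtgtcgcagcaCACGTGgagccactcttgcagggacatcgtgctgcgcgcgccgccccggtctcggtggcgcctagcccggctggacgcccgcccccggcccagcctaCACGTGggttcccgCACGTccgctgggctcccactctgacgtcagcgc
Hif1a: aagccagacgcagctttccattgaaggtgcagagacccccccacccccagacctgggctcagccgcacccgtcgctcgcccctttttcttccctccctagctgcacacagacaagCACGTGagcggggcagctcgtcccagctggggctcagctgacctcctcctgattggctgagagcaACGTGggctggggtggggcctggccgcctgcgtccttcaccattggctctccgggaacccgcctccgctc
The windows lie at chr7:110627407-110627656, plus strand for Adm, chr8:45999851-46000100, minus strand for Ankrd37, chr7:138909507-138909756, minus strand for Bnip3, chr4:119108495-119108744, plus strand for Slc2a1, chrX:106186850-106187099, plus strand for Pgk1, chr7:46845554-46845803, plus strand for Ldha and chr12:73907617-73907866, plus strand for Hif1a.

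Ankrd37 had 2 matches at opposite ends of its window, Bnip3 a single CACGTG, Slc2a1 1 match, Pgk1 2 and Ldha 5, while Adm had 0 in these 250 bases. Hif1a had 3. Counted by start site, 47.1% of the 51 member windows held ACGTG, against 21.7% of the 12938 windows of all genes tested here and 16.6% of all 32841 windows. With either purine as the first base (ACGTG or GCGTG) the shares were 82.4%, 55.2% and 38.6%, and the Adm window had 2 matches. Members' windows had a median GC content of 61.6%, those of all genes tested 59.6% and all windows 52.4%. Among members with a window, 17 of the 26 that fell and 3 of the 6 that did not pass held the core in at least 1 window. A match is a description of the letters, and whether HIF-1 binds there was not tested.

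In Th1 cells the day difference ran the other way. Between day 2.5 and day 3.5, 27 of 34 members were higher in the WT pair (median 0.19) and 30 of 34 in the NFATc1/ΔS pair (median 0.905), and 25 were higher in both. Over all genes 50.5% and 49.1% were higher. In the Th2 and Th17 pairs only 1 to 3 members were higher. A model with day and genotype within each culture type over 12 libraries, added after these values had been seen, called 6 members in Th1 (5.7% of all genes). Slc2a1 rose by 0.88 ± 0.17 (adjusted p = 0.0367, edgeR), Pfkm by 0.74 ± 0.14, Pfkfb3 by 0.68 ± 0.14, Ak4 by 0.62 ± 0.12 and Hk2 by 0.52 ± 0.11. Their Th1 values in WT and NFATc1/ΔS at day 2.5 and then day 3.5 were 289.0 and 211.8, then 452.6 and 457.2 CPM, for Slc2a1, and 187.6 and 195.1, then 273.9 and 276.4, for Hk2, with no overlap between days. The day 3.5 values rest on the 2 libraries that stood apart. Without any 1 of the 8 Th2 and Th17 libraries 0 members passed. Leaving out a Th1 library left 1 Th1 pair to carry the change, with a median of 0.905 in NFATc1/ΔS and 0.19 in WT.

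Eno1 was the called member that went down in Th1, by 0.61 ± 0.12, from 3854.6 and 3469.6 CPM to 2539.4 and 2254.3. With the reads of its copy Eno1b added, the summed level went from 3863.1 and 3477.4 CPM to 5063.9 and 4689.0, and the change became 0.41 (adjusted p = 0.102, edgeR). With uniquely placed reads alone the Eno1 change was -0.70 (adjusted p = 0.0286, edgeR). Eno1b had 8.5 and 7.8 CPM in Th1 at day 2.5. Only 24.9% of Eno1 reads were uniquely placed, so reads of the 2 genes cannot be told apart with certainty. The direction in Th1 thus depends on how shared reads are counted, and every Eno1 value in Th1 cells is uncertain.

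The difference between the Th1 and the other day changes was tested in that same model. Against Th2, 13 members had a higher (less negative or positive) day change in Th1 and 0 a lower one, where 3.76% of all genes were higher, and the median difference of the 34 was 1.13 (all genes -0.05). Against Th17 the count was 14 higher and 0 lower, where 5.13% of all genes were higher, with a median of 1.01. Slc2a1 differed by 1.66 ± 0.24 from Th2 and by 1.72 ± 0.24 from Th17, Egln1 by 1.73 ± 0.29 and 1.505 ± 0.293, Ankrd37 by 2.65 ± 0.52 and 2.44 ± 0.52, and Vegfa by 1.91 ± 0.41 and 1.99 ± 0.41. Ak4, Hk2, Gapdh, Pfkm, Pfkfb3, Pgk1, Aldoa and Tpi1 passed in both comparisons, Pkm passed against Th2 (0.85) and not Th17, and Pgam1 (0.95) and Adm (adjusted p = 0.05) passed against Th17 and not Th2. The fitted Adm difference of 5.21 depends on how a library with 0 reads is handled. Gapdh turned round with uniquely placed reads alone, to -2.05 against Th2 and -2.16 against Th17. Of the other low-oxygen genes 13 of 43 were higher against Th2 and 14 of 43 against Th17, with 0 lower in both. Of 5 red blood cell markers tested 2 were higher against Th2 (median 4.53) and 3 against Th17 (median 4.72), with a summed level of 3.2 to 8.0 CPM over 7 genes in the Th1 libraries, and of 5 CD8 T and NK cell markers 2 were lower in both comparisons. Their part in the result was not tested. Leaving out a Th1 library again left 1 Th1 pair to carry the Th1 day change. Its median over the members was 0.905 in NFATc1/ΔS and 0.194 in WT. Without any 1 of the Th2 libraries 0 passed in either comparison, and without any 1 of the Th17 libraries 1 passed against Th2 and 0 against Th17.

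The Th1 NFATc1/ΔS library of day 2.5 held the lowest value of all 12 libraries for 28 of the 34 members (23.7% of all 13503 genes had their lowest value there). Ndrg1 had 59.2 CPM in it, against 452.0 in Th1 WT at the same day and 644.8 and 770.5 at day 3.5. Aldoc, the second aldolase, had 40.1 CPM against 345.2, 311.1 and 293.2, and Slc2a3 had 337.0 against 1630.1, 2172.3 and 2131.8. Adm had 0 reads of 15282341 there, which allows up to 0.197 CPM by counting error alone (3 reads), against 34 reads in the Th1 WT partner.

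The same library was also low for Bnip3 (108.3 CPM against 312.7 in the WT partner), Ankrd37 (7.1 against 27.0), Vegfa (23.8 against 55.7), Egln3 (382.6 against 968.2), P4ha1 (111.0 against 255.9), Mxi1 (71.3 against 149.5) and Pfkfb4 (6.3 against 15.7). It was not low for all members. Slc16a1 had 176.7 CPM, the highest of the 12 libraries and above a range of 81.7 to 111.9 in the other 11. Ldha (3281.1 against 3041.2), Hif1a (970.2 against 952.9), Hk2 (195.1 against 187.6) and Pfkl (293.8 against 245.5) were near or above the WT partner. Its cell cycle genes had the highest summed level, 7910 CPM against 3088 to 5677 in the others, and its Ifng level of 186.7 CPM compared with 38.2 to 53.7 in the other Th1 libraries. Their part in the result was not tested.

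**Figure D3:**
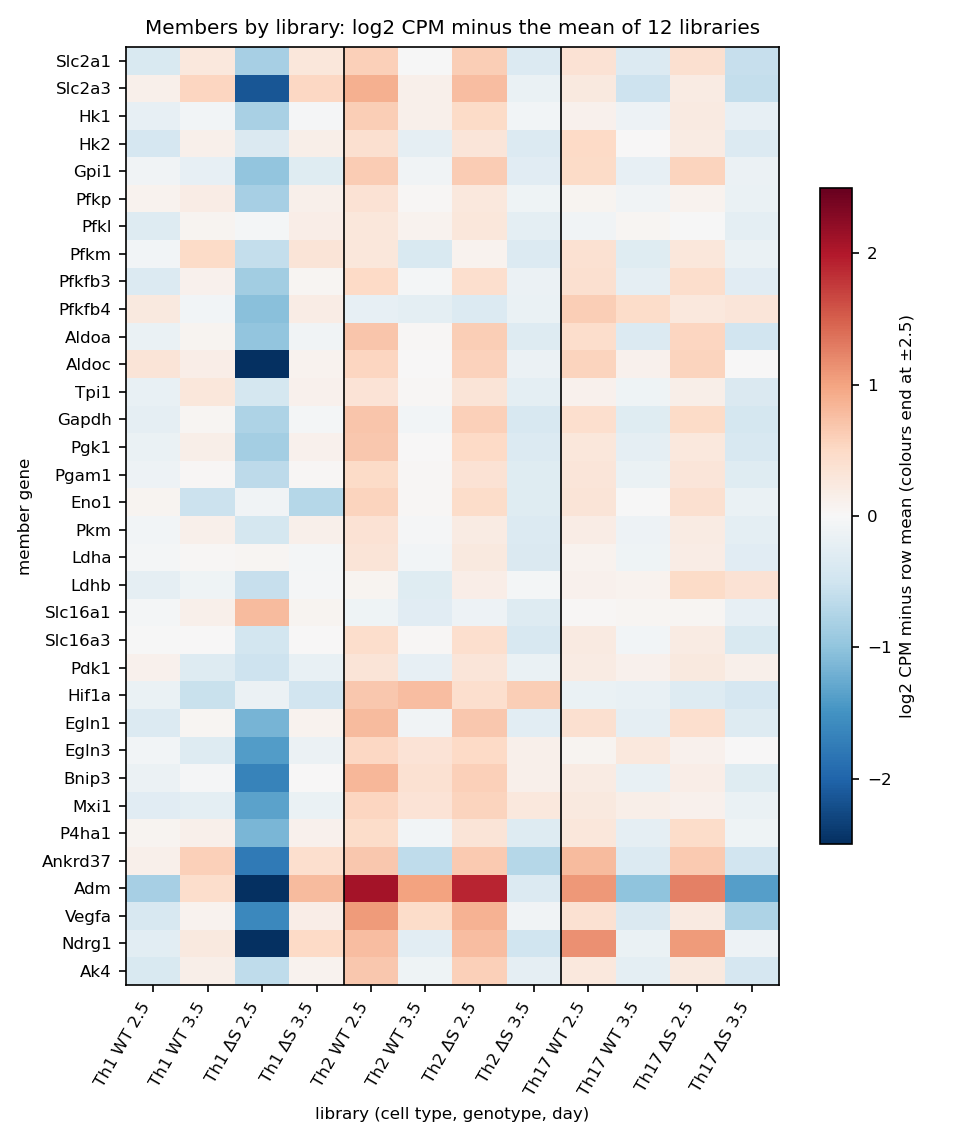
Log2 CPM of each of the 34 genes (rows) in each of the 12 libraries (columns, by culture type, genotype and day), with the mean of the 12 libraries subtracted from each row. Red is above and blue below that mean, and colours end at 2.5 in either direction. The Th1 NFATc1/ΔS day 2.5 column is the bluest, with the lowest value for 28 of the 34 genes (23.7% of all genes). The Th2 WT day 2.5 column is the reddest, with the highest value for 21 of the 34 (10.4% of all genes).

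The comparison of culture types gave different signs at the 2 days. At day 2.5, 32 of 34 members were lower in Th1 than in Th2 in WT (median -0.66) and 33 of 34 in NFATc1/ΔS (median -1.28). At day 3.5, 22 of 34 were higher in Th1 in WT (median 0.14) and 27 of 34 in NFATc1/ΔS (median 0.335). Against Th17 the same held, with 32 of 34 lower in both genotypes at day 2.5 (medians -0.36 and -1.17) and 26 of 34 higher in both at day 3.5 (medians 0.219 and 0.345). Ndrg1 gives an example, at 452.0 CPM in Th1 against 927.4 in Th2 and 1190.0 in Th17 (WT, day 2.5), and at 644.8 against 452.4 and 486.1 at day 3.5. Of all 13503 genes, 53% (WT) and 51.9% (NFATc1/ΔS) were higher in Th1 than in Th2 at day 2.5, and 52% and 52.6% at day 3.5. Against Th17 the shares were 49.8% and 50.3%, then 49.7% and 49.9%. The day 3.5 values rest on the 2 Th1 libraries that stood apart.

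Over both days together, 5 members differed between Th1 and Th2 (edgeR, adjusted p under 0.05; 28.1% of all 13503 genes did), with Hif1a, Mxi1, Egln3 and Eno1 lower and Slc16a1 higher in Th1. Hif1a had 952.9, 970.2, 724.3 and 770.7 CPM in Th1 (WT and NFATc1/ΔS at day 2.5, then at day 3.5) and 1712.5, 1428.6, 1837.1 and 1635.7 in Th2, with no overlap. Its level in Th1 was 0.516 of that in Th2 (-0.955 ± 0.127, adjusted p = 0.00103). Only 22.01% of Hif1a reads were uniquely placed, and with those alone the difference was -0.964. With the NFATc1/ΔS libraries alone it was -0.869 and did not pass (adjusted p = 0.184, edgeR). Mxi1 differed by -0.90 ± 0.23 and Egln3 by -0.81 ± 0.24, both with their lowest value in the Th1 NFATc1/ΔS day 2.5 library. Without that library they differed by -0.624 and -0.521. With the WT libraries alone neither passed (adjusted p = 0.0568 for Mxi1 and 0.103 for Egln3, edgeR), nor with the NFATc1/ΔS libraries alone (0.304 and 0.338). Slc16a1 differed by 0.45 ± 0.14, with its highest value in that library, and its adjusted p (edgeR) reached 0.4 with the WT libraries alone. The Eno1 difference of -0.51 ± 0.09 became 0.03 with Eno1b reads added. With uniquely placed reads alone the Eno1 difference was -0.574 from Th2 and -0.56 from Th17.

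Between Th1 and Th17 only Eno1 passed (-0.46 ± 0.09, adjusted p = 0.0296, edgeR; 4.66% of all genes did), and with Eno1b reads added the difference was 0.09 (adjusted p = 0.819) and 0 members passed. Ldhb (-0.48), Pfkfb4 (-0.555) and Pdk1 (-0.38) came next and did not pass. Without both Th1 day 3.5 libraries, a setting chosen after seeing the data, 28 members were lower in Th1 than in Th2 and 24 lower than in Th17, with 0 higher. Without both Th1 day 2.5 libraries 14 were higher and 5 lower than in Th2, and 21 higher and 1 lower than in Th17. The share of all genes that passed in these fits is not given, so the counts cannot be set against it. B cell markers also differed, with a summed level of 21.5 to 70.0 CPM over 9 genes in Th1 and 80.9 to 126.0 in Th2. Pax5 had 0.1 CPM or less in Th1 and 4.0 to 4.8 in Th2, while Ms4a1 had 0.2 or less and 0.2 to 0.5. Ighm overlapped, with 15.2 to 65.4 CPM in Th1 and 44.0 to 81.8 in Th2. Of 8 B cell markers tested 8 were lower in Th1 (edgeR, adjusted p under 0.05), where 13.8% of all genes were. Their part in the result was not tested.

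Between Th2 and Th17, Hif1a stood out with 1.87 times the level in Th2 (0.90 ± 0.13, adjusted p = 0.0026, edgeR), all 4 Th2 libraries lying between 1428.6 and 1837.1 CPM and all 4 Th17 libraries between 797.4 and 949.7. With the WT libraries alone the Hif1a difference was 0.911, and with the NFATc1/ΔS libraries alone 0.907. It did not pass in either (adjusted p = 0.081 and 0.373, edgeR). Over all 12 libraries Hif1a was the only member of 34 to pass, where 11.8% of all genes did. Pfkfb4 (-0.65), Ldhb (-0.28) and Vegfa (0.70) followed and did not pass. The Th1 libraries entered this fit through the spread, and with the 8 Th2 and Th17 libraries alone 17 members passed, 13 higher in Th2 and 4 lower. Vegfa was among these 17 (0.706, adjusted p = 9.82e-06, edgeR). The share of all genes that passed in that fit is not given, so the 17 cannot be set against it. The gene of a second alpha subunit, Epas1 (HIF-2 alpha), which is no member, had 87.2 to 143.9 CPM in Th2 and 1.1 to 5.2 CPM in the other 8 libraries.

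**Figure D4:**
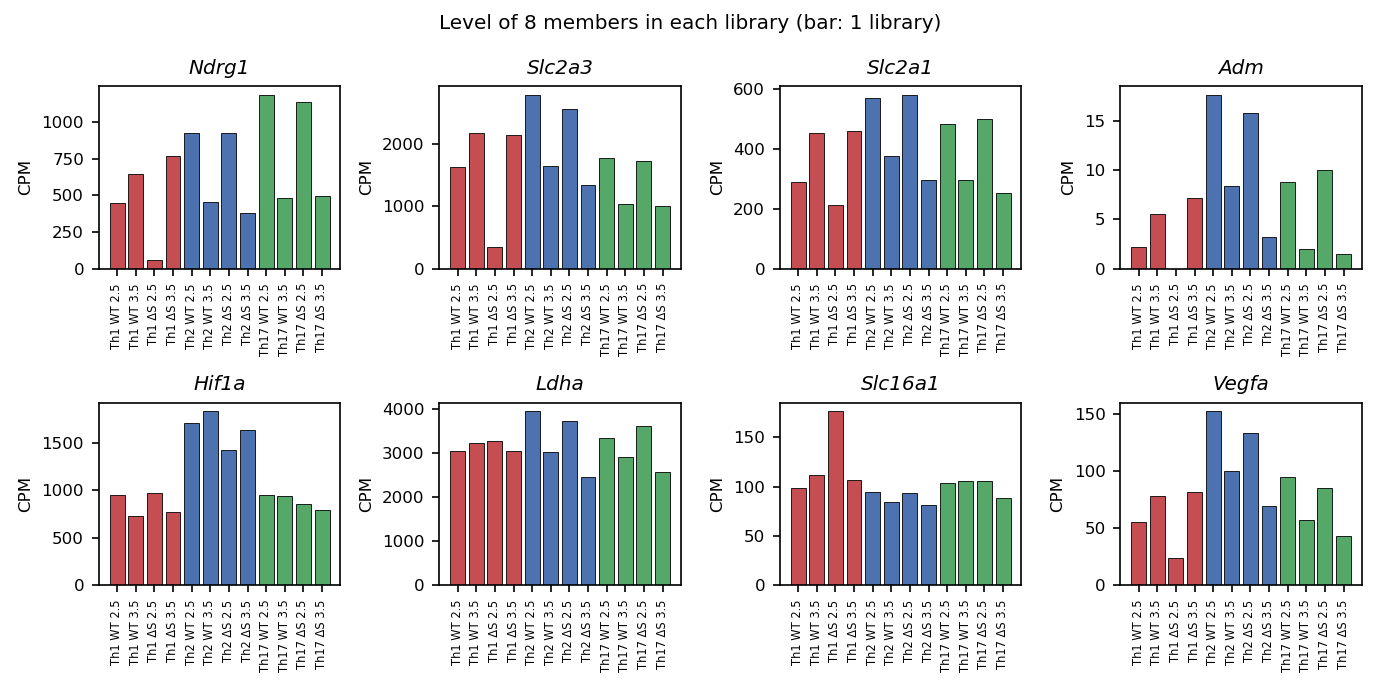
CPM of Ndrg1, Slc2a3, Slc2a1, Adm, Hif1a, Ldha, Slc16a1 and Vegfa in each of the 12 libraries, 1 bar per library, coloured by culture type, with axes that start at 0. Hif1a lies between 1428.6 and 1837.1 in the 4 Th2 libraries and at 970.2 or less in the other 8, Ndrg1, Slc2a3 and Adm have their lowest bars, at 59.2, 337.0 and 0, in the Th1 NFATc1/ΔS library of day 2.5, and Slc16a1 is highest there.

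Over all 6 pairs that differ in day, Th1 included, 0 of 34 members and 0% of all 13503 genes passed (edgeR, 2 members were at an unadjusted p under 0.05, both lower, DESeq2 called 1 and limma-voom 0). Eno1 (-0.56) and Ldha (-0.28) were those 2, followed by Gpi1 (-0.41) and Pdk1 (-0.22). The Th1 pairs entered this spread.

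The question of genotype was whether NFATc1/ΔS cells differed from WT. Over the 4 Th2 and Th17 pairs that share culture type and day, Vegfa alone passed, lower in NFATc1/ΔS by 0.33 ± 0.07 (adjusted p = 0.0294, edgeR; 1.96% of all genes passed). Vegfa had 152.8 CPM in WT and 133.9 in NFATc1/ΔS Th2 cells at day 2.5 and 100.5 and 69.1 at day 3.5, and in Th17 95.1 and 85.2, then 57.4 and 42.7, so NFATc1/ΔS was lower in 4 of 4 pairs. The call was lost in 3 of the 4 fits that left out 1 pair, without the robust option and without the pairing, where the adjusted p was up to 1. The median change of the 34 was -0.12 with 32 of 34 below 0, and that of all genes -0.004 with 6709 of 13086 below 0. Of the other members Ldhb (0.25 ± 0.07), Hk2 (-0.21 ± 0.06) and Hif1a (-0.20 ± 0.07) came closest and did not pass.

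By day and culture type, day 3.5 had 30 of 34 members lower in NFATc1/ΔS than in WT Th2 cells (median -0.23) and 28 of 34 in Th17 (median -0.14). At day 2.5 it was 28 of 34 in Th2 (median -0.09) and 14 of 34 in Th17 (median 0.03), and the difference between days was not tested. Of all 13503 genes, 47.6% (Th2) and 49% (Th17) were higher in NFATc1/ΔS at day 3.5, and 48.9% and 49.3% at day 2.5. Each of these counts rests on 1 library of each genotype. In Th2 alone 0 of 34 passed (edgeR, 0.932% of all genes did; 6 were at an unadjusted p under 0.05, all lower, and DESeq2 and limma-voom called 0), with Vegfa (-0.36), Bnip3 (-0.24), P4ha1 (-0.19) and Hif1a (-0.21) leading. In Th17 alone 0 passed (edgeR, 1.72% of all genes did; 4 were at an unadjusted p under 0.05, 3 of them lower, and DESeq2 and limma-voom called 0), with Hk2 (-0.32 ± 0.08, adjusted p = 0.0638), Ldhb (0.32), Vegfa (-0.29) and Mxi1 (-0.22) leading. The difference between the 2 genotype changes passed for 0 members (edgeR, 0.298% of all genes; 1 at an unadjusted p under 0.05, and 0 by DESeq2 and limma-voom), led by P4ha1 (0.34), Hk2 (-0.215), Mxi1 (-0.19) and Adm (0.65).

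In Th1 cells the 2 genotype pairs were unlike. At day 2.5, 29 of 34 members were lower in NFATc1/ΔS, where 49.7% of all genes were higher. The median was -0.62, with 11 members below -1 (10.9% of all genes were). Adm (-4.16), Aldoc (-3.10), Ndrg1 (-2.93), Slc2a3 (-2.27) and Ankrd37 (-1.91) were lowest and Slc16a1 (0.845) highest. At day 3.5 the median was -0.01, with all members between -0.18 and 0.35. Over both days 0 of 34 passed (edgeR in the model added after seeing the data, 0% of all genes; 5 at an unadjusted p under 0.05, all lower, and 0 by DESeq2 and limma-voom), led by Aldoa (-0.49), Ankrd37 (-0.99), Gpi1 (-0.50) and Pfkp (-0.49). Without either Th1 library of day 3.5 the genotype change rests on the day 2.5 pair alone, with the median of -0.62 given above. Over all 6 genotype pairs 0 of 34 passed either (edgeR, 0% of all genes; 4 at an unadjusted p under 0.05, all lower, and 0 by DESeq2 and limma-voom), led by Vegfa (-0.40), Pgk1 (-0.24), Slc16a3 (-0.20) and Tpi1 (-0.15).

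**Figure D5:**
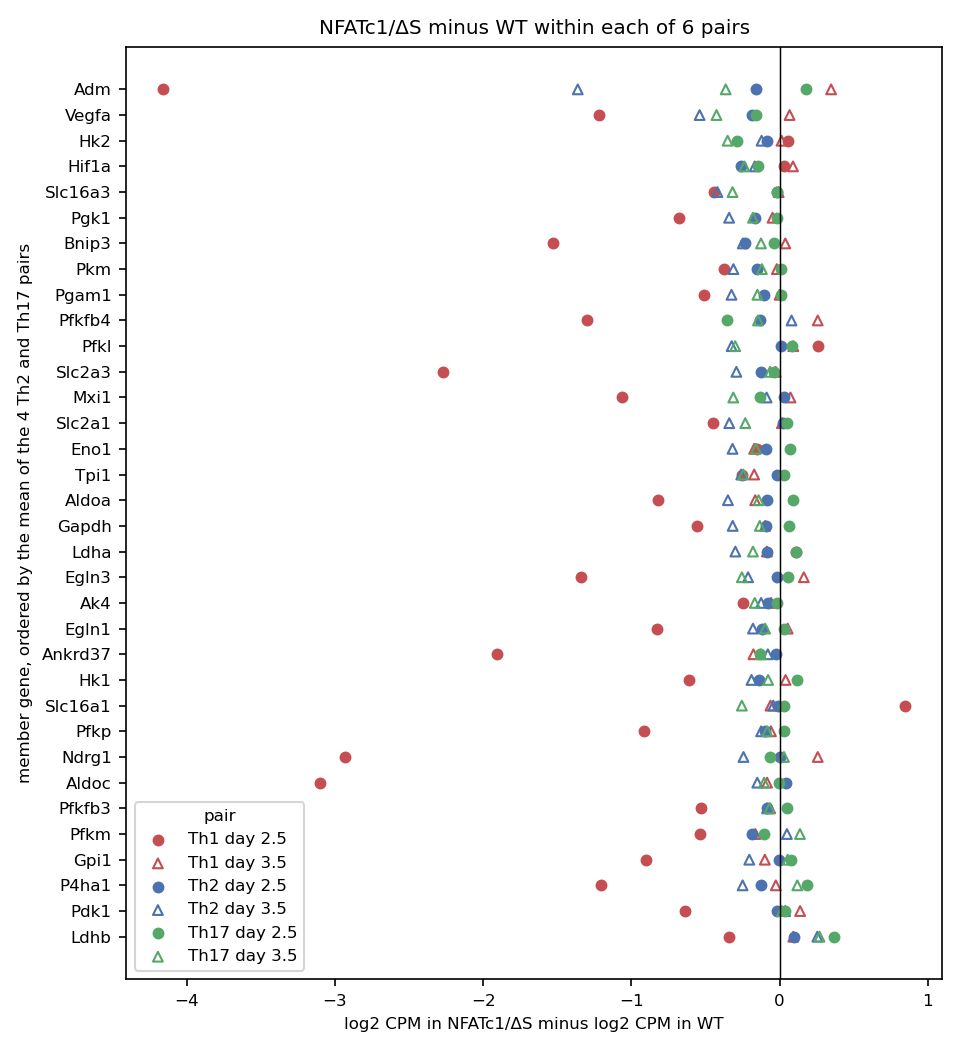
Difference in log2 CPM, NFATc1/ΔS minus WT, for each of the 34 genes within 6 pairs of libraries that share culture type and day. Each point is 1 pair, filled circles are day 2.5 and open triangles day 3.5. The Th1 day 2.5 points spread from -4.16 (Adm) to 0.845 (Slc16a1), while the 5 other pairs lie between -1.36 and 0.37.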

How the data were processed

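The authors deposited 1 table per library with whole-number read counts per gene on build GRCm38 (per the file headers and the submitters' processing notes). The columns are total and uniquely placed gene, exon and intron reads. What aligned and counted the reads, and whether strand was used, is not given in the sources used here. Total gene reads include reads that also fit elsewhere, so genes with near-identical copies (Gapdh, Eno1, Hif1a, Bnip3, Adm) are uncertain. The deposited TPM columns were not used.

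Counts were scaled by TMM and tested with edgeR 4.0.16 (R 4.3.3, robust quasi-likelihood test, genes kept by filterByExpr with a minimum count of 10 and total of 15, Benjamini-Hochberg adjustment over all genes tested, called at an adjusted p under 0.05). Models held culture type, day and genotype, with libraries that share the other 2 factors as blocks. Changes within 1 culture type, and their differences, came from a model of day and genotype within each type, without such blocks. There the culture types shared 1 estimate of spread, with 2 residual degrees of freedom for the Th2 and Th17 tests. The labels give no replicate numbers shared between groups. Since each combination has 1 library, p-values measure how a difference repeats over cultures. The same models were run with DESeq2 1.42.0 and limma-voom (limma 3.58.1), and with other scaling, filters, read types and left-out libraries. Some of the fits, not those of the Th1 day and genotype changes, were run on simulated counts. The simulated sets held no libraries that stood apart, so they do not show how the fits behave with the Th1 libraries. The models of Th1 day and genotype changes, the summing of Eno1 with Eno1b and the fits without a pair of Th1 libraries were chosen after seeing the data.

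The members and gene lists were chosen with earlier results of these data known. All members are named with a level, and in each comparison those that passed, or the 4 of smallest p where fewer than 4 did. The limit behind 0 reads is 3 reads and covers counting error only.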

Additional observations from a re-analysis of the deposited data

Results flagged for a closer look

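The results here are the members whose day change in Th1 differed from that in Th2 or Th17 by the test of the difference itself (edgeR, adjusted p of 0.05 or less, 12 libraries). Each value is the Th1 change minus the other on the log2 scale. Among the glucose transporters and early enzymes, Slc2a1 differed by 1.66 from Th2 and 1.72 from Th17, Hk2 by 1.16 and 1.05, Pfkm by 1.29 and 1.3, and Pfkfb3 by 1.24 and 1.35. Among the later enzymes, Aldoa differed by 1.37 and 1.47, Tpi1 by 0.94 and 0.86, Gapdh by 1.38 and 1.32 and Pgk1 by 1.38 and 1.21. Pkm differed by 0.85 from Th2, and Pgam1 by 0.95 from Th17. Among the low-oxygen genes, Egln1 differed by 1.73 and 1.5, Ankrd37 by 2.65 and 2.44, Vegfa by 1.9 and 1.99, Ak4 by 1.42 and 1.21, and Adm by 5.21 from Th17. The 2 Th1 libraries of day 3.5 stood apart from the other 10, and the day in Th1 cannot be told apart from that. The Th1 change also held the low NFATc1/ΔS library of day 2.5, with a median of 0.905 in that pair and 0.194 in the WT pair. Gapdh turned round with uniquely placed reads alone (-2.052 against Th2, -2.158 against Th17). The Adm value depends on a library with 0 reads. Nearly all of these calls were lost when a single Th2 or Th17 library was left out. No group held more than 1 library, so single libraries could not be examined as outliers of a group.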

How the results depend on the processing

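Across 17 comparisons, the values of single members kept direction and side of the threshold in 2375 of the alternative fits, lost the call in 433, gained it in 36 and turned round in 5. The 5 were Eno1 with Eno1b reads added (0.026 for Th1 against Th2, 0.087 against Th17 and 0.411 for the day in Th1) and Gapdh with uniquely placed reads in the difference of day changes (-2.052 against Th2 and -2.158 against Th17). The cause was not tested.

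Counts of members that passed moved as follows. With DESeq2 they were 2 for Th2 against Th17, 1 for the day over 6 pairs, 2 for genotype over 4 pairs, 13 for the day in Th1 and 23 for Th1 minus Th2. With no read filter they were 0 for Th1 against Th17, 2 for genotype over 4 pairs, 1 for the difference of day changes, 2 for genotype in Th2 and 1 in Th17, where unique and exon reads also gave 1. Without the robust option genotype over 4 pairs gave 0. With no replicate block Th1 against Th17 gave 0 and genotype over 4 pairs 0, and the day over the 4 pairs gave 21 in place of 28. WT libraries alone gave 1 (Th1 against Th2), 0 (Th1 against Th17) and 0 (Th2 against Th17), and NFATc1/ΔS libraries alone 0, 0 and 0. The 8 Th2 and Th17 libraries alone gave 17 for Th2 against Th17. All 12 libraries in the model gave 0 for the day in Th2 and 0 in Th17. With Eno1b reads added Th1 against Th17 gave 0. Without both Th1 day 3.5 libraries the 3 culture comparisons gave 28, 24 and 3, and without both Th1 day 2.5 libraries 19, 22 and 20.

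Leaving out 1 library or pair gave 2 to 7 for Th1 against Th2, 0 to 1 for Th1 against Th17, 1 to 4 for Th2 against Th17, 0 to 1 for the day over 6 pairs, 25 to 31 over 4 pairs, 20 to 31 in Th2, 19 to 24 in Th17 and 0 to 31 in Th1. It gave 0 to 1 for the Th17 minus Th2 day change, 0 to 32 for Th1 minus Th2 and 0 to 30 for Th1 minus Th17. For genotype it gave 0 to 0 over 6 pairs, 0 to 1 over 4 pairs, 0 to 2 in Th2, 0 to 0 in Th17, 0 to 25 in Th1 and 0 to 0 for the difference. The lone library of a combination is assumed to vary like the others. Within 1 culture type, a left-out library leaves 1 pair to carry that type's change. The share of all genes that passed is not given for the alternative fits.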

Other observations

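Genes of neighbouring pathways changed as follows between day 2.5 and day 3.5 in Th2 and Th17 cells (edgeR, adjusted p under 0.05), where 19.9% of all genes rose and 18.7% fell. Of 32 tested genes of pyruvate entry and the TCA cycle 2 rose and 7 fell, with a median of -0.04. Of the 7 pentose phosphate genes, which make NADPH and ribose, 2 rose and 0 fell. Of the 7 serine synthesis genes 5 rose and 1 fell, with a median of 0.35. Of 18 tested regulators of T cell glucose use 5 rose and 3 fell.

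Between Th1 and Th2, 12 of 32 tested TCA cycle genes were higher and 3 lower in Th1 (median 0.25), and 7 of 26 cell cycle genes were higher and 0 lower, where 14.3% of all genes were higher and 13.8% lower. The summed level of TCA cycle genes was 4592 CPM in the Th1 NFATc1/ΔS library of day 2.5 and 3387 to 4142 in the other 11. Markers of CD8 T and NK cells summed to 207.6 CPM in the Th1 WT library of day 2.5, with Nkg7 at 151.7, to 130.6 in its NFATc1/ΔS partner and to 34.6 to 62.2 in the other 10.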
